A study of Mus musculus with 6 samples.

Results

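Interferon-stimulated genes were described in the interscapular depot of brown fat, a tissue that burns lipid to make heat. Each sample's label names that depot, while the series text calls it inguinal. The members were 37 genes listed by name, all known to be induced by interferons. All 37 had a row among the 54385 rows of the deposited table, and all 37 were among the 18114 genes left by a filter on low counts. The RNA came from C57BL/6N mice aged 20 weeks raised on chow to 8 weeks of age, given 12 weeks of high-fat feeding, and moved to 4 °C for the final 24 h. The groups were 3 wild-type libraries (genotype wt/wt) and 3 ADCY3∆AT libraries, from mice without Adcy3-AT, a truncated form of adenylyl cyclase 3, the enzyme that makes cyclic AMP. The diet and the cold were shared by both genotypes, so no library stands for a warm or chow-fed mouse. The labels do not say how the allele was made, whether it was lost in every tissue, or whether each library is 1 animal, and p-values therefore reflect only the spread between these libraries, which may be partly technical. The question asked of these genes was whether their level differed with genotype, and how it varied between the libraries of each genotype.

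Interferons are secreted proteins that warn cells of viruses and other microbes. Type I interferons bind the receptor of Ifnar1 and Ifnar2, which activates a complex that holds STAT2 and IRF9, and this complex binds a DNA element called the interferon-stimulated response element (ISRE). Interferon gamma, made by T and NK cells, acts through Ifngr1 and Ifngr2 and leads to binding at a different element. The induced genes encode sensors of foreign nucleic acid, enzymes that destroy or trap viral RNA, and GTPases that attack the vacuoles of microbes. Uninfected tissues keep a low level of many of them, and immune and endothelial cells as well as adipocytes can express them.

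Library totals ranged from 44826777 to 54933588 estimated counts. Brown adipocyte markers were present, with Ucp1 between 9972 and 10647 CPM (counts relative to the TMM-scaled library size) over the 6 libraries. Not every such marker was as even. The 8 markers summed to 14105 to 14303 CPM over the wild-type replicates and to 13276 to 13457 CPM in ADCY3∆AT. Dio2 had 310, 328 and 616 CPM in the ADCY3∆AT libraries, all below its lowest wild-type value of 623 CPM. For Elovl3 these were 292, 332 and 376 CPM, below 386 CPM. The log2 fold changes of Dio2 and Elovl3 were -0.75 ± 0.25 and -0.38 ± 0.11 (SE), with edgeR adjusted p = 0.334 and 0.305. Of the 8, 2 had a fold change above 0. The targeted gene, Adcy3, measured 677, 728 and 652 CPM in the wild-type replicates against 349, 342 and 506 CPM in ADCY3∆AT, a log2 fold change of -0.78 ± 0.14 (SE) with no overlap between the genotypes. This difference did not pass in edgeR (adjusted p = 0.158), but did in DESeq2 (adjusted p = 4.11e-07), in edgeR with no low-count filter (adjusted p = 0.00321) and in edgeR without ADCY3∆AT replicate 3 (adjusted p = 0.00338). In edgeR's quasi-likelihood test with an adjusted p under 0.05, 0.00552% of the genes tested were called, which was 1 row, absent from the annotation and lower in ADCY3∆AT. Its identifier, ENSMUSG66666620654, ends in the same digits as that of Adcy3 (ENSMUSG00000020654). Its log2 fold change was -17.7 (edgeR adjusted p = 7.90e-06), and what it measures is not stated in the sources used here. Rows without a symbol held 0.0513% to 0.0656% of counts in the wild-type libraries and 0.00280% to 0.00298% in ADCY3∆AT. DESeq2 called 1.2%, which was 231 of 19270 genes. Markers of skeletal muscle, which lies beside this depot, summed to 389 to 1099 CPM over the wild-type replicates and to 1.57, 71.0 and 171 CPM in ADCY3∆AT, lowest in replicate 1.

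None of the interferon-stimulated genes was called with genotype. The number past the threshold was 0 of 37 in edgeR and 0 of 37 in DESeq2 and in limma voom. Over all genes edgeR called 0.00552%, DESeq2 1.2% and limma voom 2 of 18114, so 0 of 37 lies close to those shares. An unadjusted edgeR p under 0.05 was found in 0 of 37, against 11% of all genes. The edgeR adjusted p-values of the members ranged from 0.464 to 1.00. In no member did the 3 libraries of 1 genotype all lie above the 3 of the other, whereas the genotypes did not overlap in 16.5% of the genes tested. Of the 37, 15 had a fold change above 0 (50.9% of all genes did) and 22 one below it. Their median log2 fold change was -0.04, beside 0.00392 over all genes, and single values ran from -0.44 (Ifit3) to 0.30 (Oas2). These limits leave room for differences: the 95% interval included 0 in all 37, and lay wholly between -1 and 1 on the log2 scale in 32.

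Many members were low or high in the same ADCY3∆AT library. ADCY3∆AT replicate 1 held the lowest value of the 6 libraries in 29 of the 37 members (19.7% of all genes), and ADCY3∆AT replicate 2 the highest in 19 (16.8% of all genes). In 29 members replicate 1 lay below every wild-type library (29.1% of all genes), and in 20 members replicate 2 lay above every one (28.9%). In 17 members both held, so that the ADCY3∆AT libraries lay on either side of the whole wild-type range, which was so for 3.73% of all genes. Replicate 2 exceeded replicate 1 in 35 of 37 members (51% of all genes), with a median ratio of 1.62 against 1.00 over all genes. The exceptions were Trim25, with a ratio of 0.944, and Ifi27, with 0.975. ADCY3∆AT replicate 3 lay within the wild-type range in 22 members (46.8% of all genes). The range within ADCY3∆AT was wider than within wild type in 32 members (52.6% of all genes). The median ratio of the highest to the lowest library was 1.63 in ADCY3∆AT and 1.25 in wild type, while over all genes it was 1.20 and 1.19. These counts describe these 6 libraries and carry no test.

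**Figure D1:**
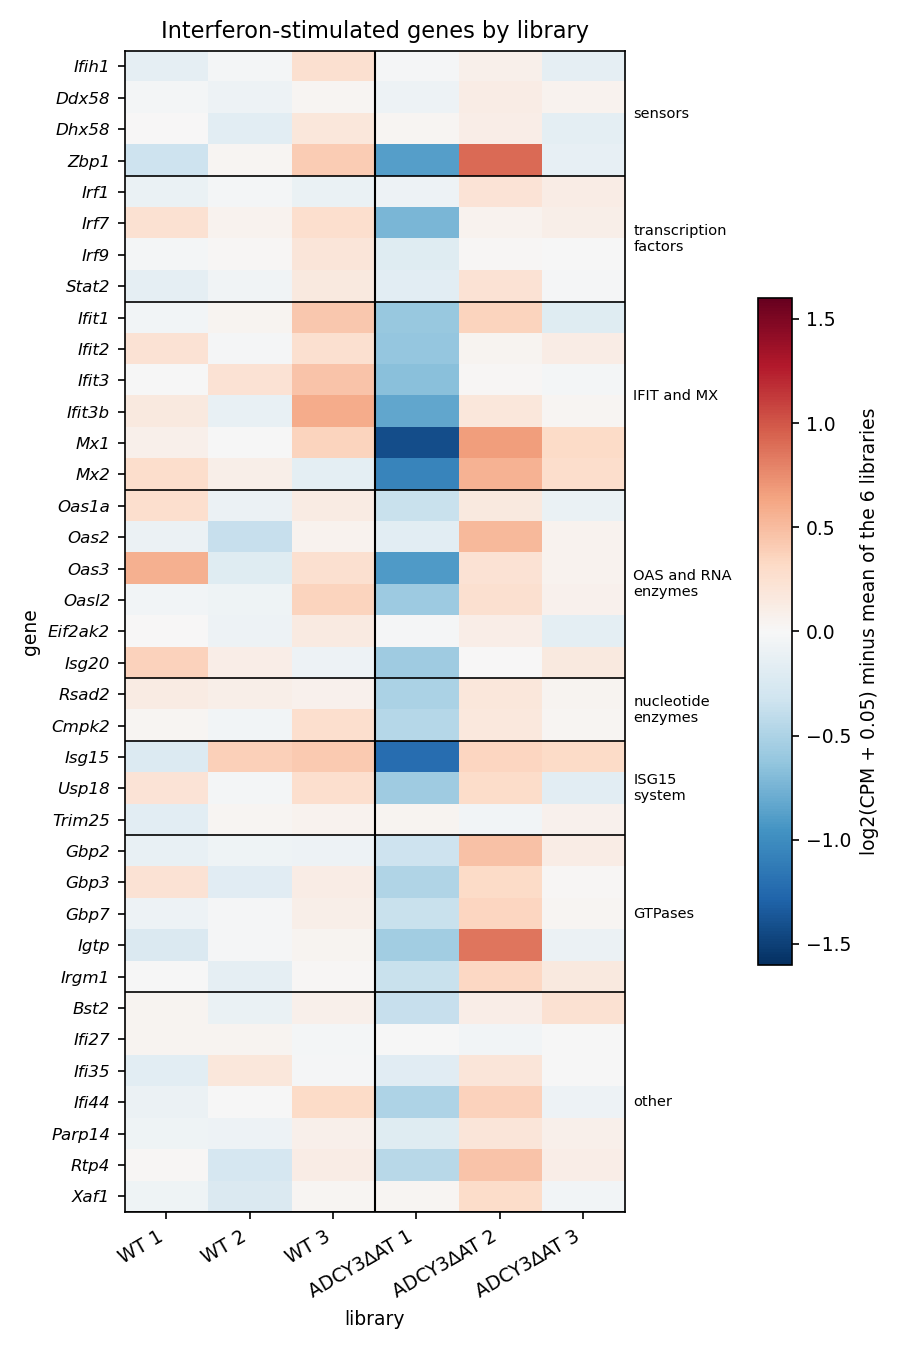
Each row is 1 of the 37 genes and each column 1 library; colour gives log2(CPM + 0.05) minus the mean of the 6 libraries, with blue below and red above that mean, and lines part the roles. The column of ADCY3∆AT replicate 1 is mostly blue, holding the lowest value in 29 genes, and that of replicate 2 mostly red, holding the highest in 19.

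The median and the number of members above 0 depended on single libraries. Without ADCY3∆AT replicate 1, 23 of 37 members had a fold change above 0 and the median was 0.09 on the log2 scale. Without ADCY3∆AT replicate 2, only 6 were above 0 and the median was -0.24. Without wild-type replicate 3 the median also passed above 0, to 0.02, with 20 members above. Over the 6 fits that leave out 1 library each, the sign changed at least 1 time in 21 members and held in 16, of which 11 were lower and 5 higher in ADCY3∆AT. The share over all genes was not computed, and these fits have most libraries in common. Some signs held only narrowly, as for Gbp2 (0.0017 without ADCY3∆AT replicate 2) and Ifit1 (-0.05 without ADCY3∆AT replicate 1). The 11 and 5 are thus a description and show no direction of the members. The number past the edgeR threshold stayed at 0 in each of those fits. With 1 library left out, 0 to 7 members had genotypes that did not overlap, the most without ADCY3∆AT replicate 1, where 27.0% of all genes did not overlap.

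**Figure D2:**
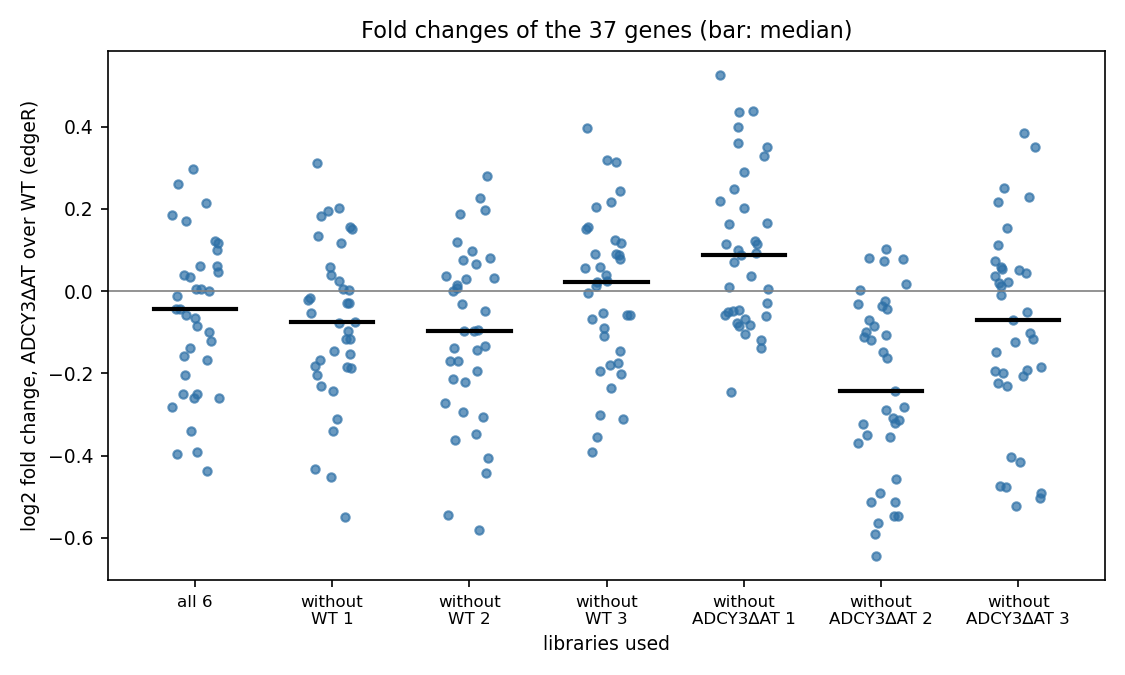
Each point is the edgeR log2 fold change (ADCY3∆AT over wild type) of 1 gene, fitted with all 6 libraries or without the library named below; the bar is the median of the 37. The median is -0.04 with all libraries, 0.09 when ADCY3∆AT replicate 1 is left out and -0.24 when replicate 2 is.

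Promoter sequence was read to describe the members. RefSeq promoters (GRCm38.p6) were found for 28 of the 37 members. The letters GAAA, any 2 bases and GAAA, the core of the ISRE, or their reverse complement (TTTC, any 2 bases and TTTC), stood in 17 of these 28 (60.7%), and in 3.99% of all 27025 genes with a promoter of this length. The letters TTCNNNGAA, a STAT site and its own reverse complement, stood in 9 of 28 (32.1%) and in 9.55% of all genes. A match is a description of the letters and does not show binding. The members were listed as genes induced by interferons, so their higher shares may follow from that choice and do not show why the libraries differed. ADCY3∆AT replicate 1 was the lowest library in 15 of the 17 members with the ISRE letters and in 8 of the 11 without, with median ratios of replicate 2 to replicate 1 of 1.63 and 1.515. ADCY3∆AT replicate 2 was the highest library in 8 of the 17 and in 4 of the 11. The 9 members not in the promoter table were Zbp1, Mx1, Mx2, Oas2, Usp18, Ifi27, Parp14, Rtp4 and Dhx58. Of these 9, 6 were lowest in ADCY3∆AT replicate 1 and 7 highest in replicate 2, with a median ratio of 1.82. The bases just before the RefSeq start of 6 members are read 5′ to 3′ on the gene's strand, with both kinds of letters in capitals, and for Ifit1 the 18 bases next to the start are left out because another annotated start lies upstream. Isg15, Ifit1 and Rsad2 stand for the members lowest in replicate 1, Gbp7 and Igtp for GTPases highest in replicate 2, and Irf1 for a member whose STAT letters come without ISRE letters.
Isg15, chr4:156200819-156200948, minus strand: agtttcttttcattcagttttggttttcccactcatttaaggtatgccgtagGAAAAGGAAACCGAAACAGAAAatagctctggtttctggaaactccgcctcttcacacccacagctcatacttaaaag
Ifit1, chr19:34640759-34640870, plus strand: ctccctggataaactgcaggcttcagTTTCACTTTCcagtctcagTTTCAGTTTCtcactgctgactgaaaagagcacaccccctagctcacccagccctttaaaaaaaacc
Rsad2, chr12:26456453-26456582, minus strand: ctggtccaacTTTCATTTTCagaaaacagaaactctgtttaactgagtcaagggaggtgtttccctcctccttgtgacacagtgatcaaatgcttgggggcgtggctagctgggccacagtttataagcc
Gbp7, chr3:142530206-142530335, plus strand: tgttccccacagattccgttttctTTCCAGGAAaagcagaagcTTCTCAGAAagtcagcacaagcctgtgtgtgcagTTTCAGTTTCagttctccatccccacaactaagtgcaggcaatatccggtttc
Igtp, chr11:58199426-58199555, plus strand: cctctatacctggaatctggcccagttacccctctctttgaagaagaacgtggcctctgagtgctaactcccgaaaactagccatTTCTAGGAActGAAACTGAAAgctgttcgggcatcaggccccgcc
Irf1, chr11:53769884-53770013, plus strand: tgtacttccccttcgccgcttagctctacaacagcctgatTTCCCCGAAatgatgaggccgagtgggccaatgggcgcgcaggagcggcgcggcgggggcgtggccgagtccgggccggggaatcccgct
The capitals of Isg15 hold 3 overlapping copies of the ISRE letters in 1 run, and Ifit1 holds 2 copies set apart. In Igtp the STAT letters and the ISRE letters stand 2 bases apart, while Gbp7 has 2 STAT matches ahead of its ISRE letters.

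The sensors of foreign nucleic acid varied little, apart from Zbp1. Ddx58 (ENSMUSG00000040296), which encodes the RNA sensor RIG-I, measured 22.5, 21.8 and 23.5 CPM in the wild-type replicates against 21.8, 25.02 and 24.0 CPM in ADCY3∆AT. Its libraries overlapped and the log2 fold change was 0.06 ± 0.07 (SE; 95% interval -0.09 to 0.22; edgeR adjusted p = 0.780). Ifih1, the RNA sensor MDA5, ranged from 13.8 to 18.2 CPM over the 6 libraries, and Dhx58, the related helicase LGP2, from 4.61 to 5.86 CPM. In both, replicates 1 and 2 of ADCY3∆AT differed by little, with ratios of replicate 2 to replicate 1 of 1.07 and 1.06. Zbp1 (ENSMUSG00000027514), a sensor of Z-form nucleic acid that can trigger cell death, measured 0.86, 1.11 and 1.47 CPM in the wild-type replicates against 0.57, 2.09 and 0.99 CPM in ADCY3∆AT. Both the lowest and the highest Zbp1 values were thus ADCY3∆AT libraries, and replicate 2 was 3.66-fold above replicate 1. The Zbp1 log2 fold change was 0.10 ± 0.44 (SE; 95% interval -0.92 to 1.12; edgeR adjusted p = 0.958).

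None of the 4 transcription factors that carry the interferon signal was called with genotype, and Irf1, Irf7 and Irf9 kept the sign of their fold change whichever library was left out. Irf7 (ENSMUSG00000025498), which amplifies type I interferon production, measured 7.76, 6.79 and 7.90 CPM in the wild-type replicates against 3.93, 6.82 and 6.98 CPM in ADCY3∆AT. Only ADCY3∆AT replicate 1 lay apart, below the other 5 libraries. The means were 7.48 ± 0.602 and 5.91 ± 1.72 CPM (SD, n = 3 each), with a log2 fold change of -0.34 ± 0.20 (SE; edgeR adjusted p = 0.588). Stat2 (ENSMUSG00000040033), a subunit of the ISRE-binding complex, measured 13.4, 14.2 and 16.5 CPM in the wild-type replicates against 13.1, 17.3 and 14.6 CPM in ADCY3∆AT. Its lowest and highest values were both ADCY3∆AT libraries. Irf9, the DNA-binding member of that complex, measured 14.6, 15.1 and 17.0 CPM in the wild-type replicates against 13.0, 15.1 and 14.8 CPM in ADCY3∆AT, a log2 fold change of -0.12 ± 0.09 (SE; edgeR adjusted p = 0.656). Irf1 (ENSMUSG00000018899), a factor induced by interferon gamma, measured 22.0, 23.3 and 22.1 CPM in the wild-type replicates against 22.4, 27.6 and 25.8 CPM in ADCY3∆AT. Replicates 2 and 3 of ADCY3∆AT lay above all wild-type libraries for Irf1 and replicate 1 lay among them. Irf1 had the lowest p-value of the members with a fold change above 0 (log2 fold change 0.17 ± 0.08, SE; unadjusted p = 0.0681; edgeR adjusted p = 0.500).

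All 6 IFIT and MX genes were lowest in ADCY3∆AT replicate 1. The 4 Ifit genes had a fold change below 0 whichever library was left out. The log2 fold changes of Mx1 (-0.06) and Mx2 (-0.00022) were close to 0 and changed sign in 2 and 3 of those fits. IFIT proteins bind viral RNA and block its translation, and their 4 genes lie in 1 cluster on chromosome 19 between 34550694 and 34650009 (GRCm38). Ifit3 (ENSMUSG00000074896), a scaffold of IFIT complexes, measured 7.95, 9.37 and 11.0 CPM in the wild-type replicates against 4.98, 8.12 and 7.79 CPM in ADCY3∆AT. The groups overlapped only through wild-type replicate 1. Ifit3 had the lowest p-value of all members, with means of 9.45 ± 1.54 and 6.96 ± 1.72 CPM (SD, n = 3 each). Its log2 fold change was -0.44 ± 0.19 (SE; 95% interval -0.88 to 0.01; unadjusted p = 0.0531; edgeR adjusted p = 0.464; DESeq2 adjusted p = 0.412). Ifit3b (ENSMUSG00000062488), its neighbour and near copy, measured 2.85, 2.35 and 3.87 CPM in the wild-type replicates against 1.41, 2.89 and 2.60 CPM in ADCY3∆AT. Of the 31-base words in Ifit3 transcripts, 61.8% also occur in Ifit3b, so the division of reads between these genes is uncertain. Ifit2 measured 14.6, 12.3 and 14.8 CPM in the wild-type replicates against 8.07, 12.8 and 13.4 CPM in ADCY3∆AT, so replicates 2 and 3 lay inside the wild-type range. The Ifit2 log2 fold change was -0.28 ± 0.18 (SE; edgeR adjusted p = 0.610). Ifit1 (ENSMUSG00000034459), which binds RNA that lacks the host's cap methylation, measured 5.14, 5.44 and 7.16 CPM in the wild-type replicates against 3.47, 6.79 and 4.61 CPM in ADCY3∆AT. Wild-type replicate 3 and ADCY3∆AT replicate 2 were the high libraries for Ifit1, and its log2 fold change was -0.25 ± 0.24 (SE; edgeR adjusted p = 0.741).

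Mx1 and Mx2 encode dynamin-like GTPases that trap viral particles, and common laboratory strains carry defective alleles of both. Mx1 (ENSMUSG00000000386) measured 1.04, 0.976 and 1.27 CPM in the wild-type replicates against 0.334, 1.59 and 1.23 CPM in ADCY3∆AT. Replicate 2 of ADCY3∆AT exceeded replicate 1 by 4.77-fold, the largest ratio between libraries among the members, while the wild-type libraries differed by 1.30-fold at most. The values in replicates 1 and 2 rest on 15 and 78 counts, with exact Poisson intervals (95%) of 0.184 to 0.541 and 1.25 to 1.98 CPM, which cover counting error only. Mx2 (ENSMUSG00000023341) measured 1.82, 1.59 and 1.34 CPM in the wild-type replicates against 0.69, 2.21 and 1.83 CPM in ADCY3∆AT. The Mx2 means were thus alike at 1.58 ± 0.244 and 1.58 ± 0.789 CPM (SD, n = 3 each), and the spread was larger in ADCY3∆AT. The interval of the Mx2 log2 fold change ran from -0.86 to 0.86.

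The OAS enzymes, which make the signal that activates the RNA-cutting enzyme RNase L, stood in 4 rows among the members, of which 3 are neighbours on chromosome 5. Oas2 (ENSMUSG00000032690) measured 3.34, 2.76 and 3.72 CPM in the wild-type replicates against 3.18, 5.16 and 3.70 CPM in ADCY3∆AT. A single library, ADCY3∆AT replicate 2, lay above the rest for Oas2, and its log2 fold change was 0.30 ± 0.21 (SE; edgeR adjusted p = 0.642). Oas1a, Oas3 and Oasl2 ranged from 2.04 to 3.18, from 0.28 to 0.88 and from 2.30 to 4.44 CPM, each with its lowest value in ADCY3∆AT replicate 1. For Oas1a 68.8% of the 31-base words also occur in other genes, mainly Oas1g. Eif2ak2, the RNA-activated kinase PKR that halts translation, ranged from 16.4 to 20.2 CPM, and Isg20, an exonuclease, from 1.20 to 2.35 CPM. Rsad2 encodes viperin, which makes a chain-terminating nucleotide, and Cmpk2 encodes the mitochondrial kinase that supplies its substrate. They are neighbours on chromosome 12, 12.8 kb apart, and lie 22.2 Mb or more from Adcy3 on the same chromosome. Rsad2 (ENSMUSG00000020641) measured 29.8, 29.2 and 28.7 CPM in the wild-type replicates against 19.2, 30.9 and 28.1 CPM in ADCY3∆AT. Wild type thus agreed to within 1.04-fold for Rsad2, and 1 ADCY3∆AT library lay far below all others. Cmpk2 was lowest in the same library, at 10.1 CPM, against 13.6 to 16.9 CPM in the other 5.

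**Figure D3:**
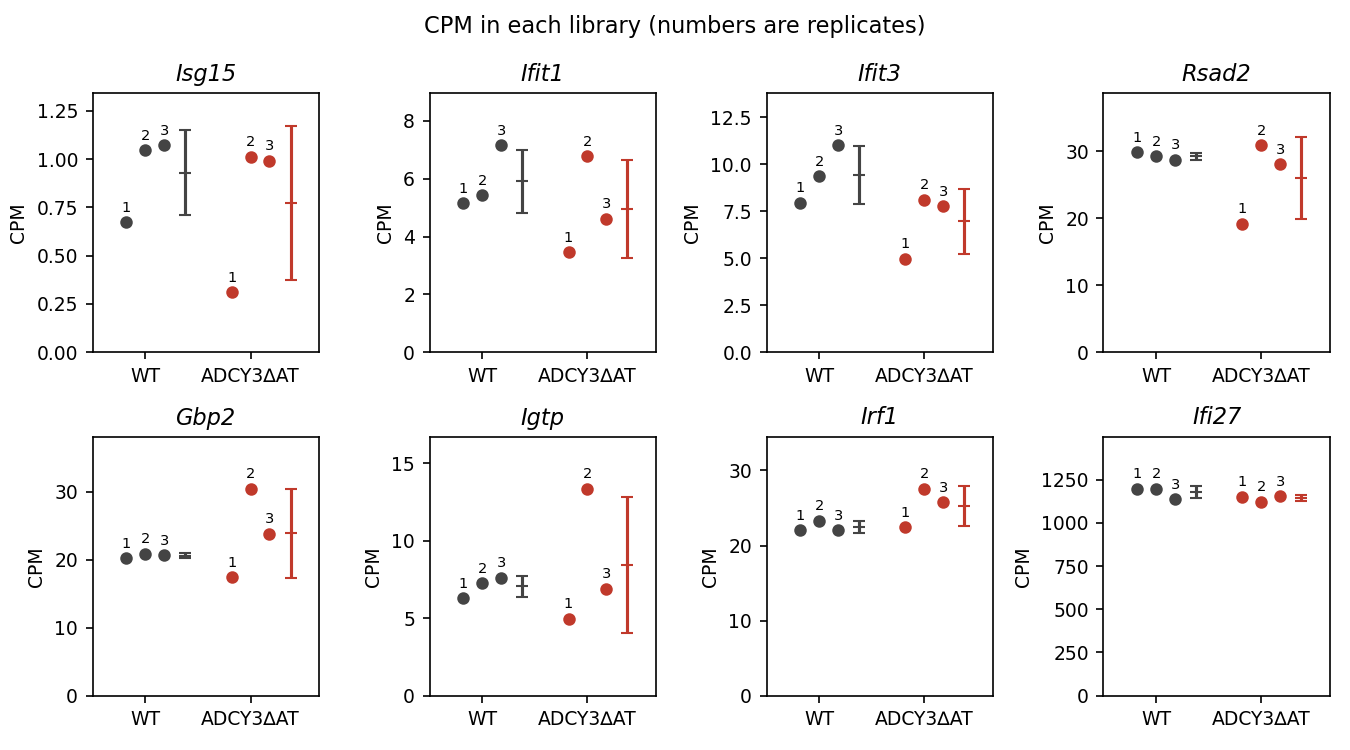
Points are TMM-scaled CPM of 8 genes in each library, numbered by replicate, on axes that start at 0; the dash and bars beside them are the mean ± SD of 3 libraries. ADCY3∆AT replicate 1 is the lowest point for Isg15, Ifit1, Ifit3, Rsad2, Gbp2 and Igtp, while Ifi27 lies between 1123 and 1198 CPM in all 6.

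Isg15 encodes a ubiquitin-like protein that is joined to other proteins, and Usp18 removes it and also damps the type I receptor. Isg15 (ENSMUSG00000035692) measured 0.674, 1.04 and 1.07 CPM in the wild-type replicates against 0.31, 1.01 and 0.991 CPM in ADCY3∆AT. Behind these values stand 37 to 49 counts per wild-type library, and 14, 50 and 46 per ADCY3∆AT library. The Poisson interval of replicate 1, 0.167 to 0.514 CPM, reaches above the lower bound of wild-type replicate 1, 0.475 CPM, and stays below those of the other 4 libraries. The Isg15 log2 fold change was -0.26 ± 0.43 (SE; 95% interval -1.24 to 0.72; edgeR adjusted p = 0.863). Usp18 (ENSMUSG00000030107) measured 4.11, 3.45 and 4.27 CPM in the wild-type replicates against 2.38, 4.33 and 3.13 CPM in ADCY3∆AT. Its highest and lowest libraries were both ADCY3∆AT, and its log2 fold change was -0.26 ± 0.22 (SE; edgeR adjusted p = 0.703). Trim25, a ligase that joins ubiquitin or ISG15 to targets, ranged from 29.7 to 35.2 CPM and did not share the low value in ADCY3∆AT replicate 1, where it had 34.5 CPM.

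Interferon-inducible GTPases attack the vacuoles of intracellular microbes and are typical targets of interferon gamma, and the 5 among the members shared a pattern. All 5 members were lowest in ADCY3∆AT replicate 1 and all 5 were highest in ADCY3∆AT replicate 2, on either side of the wild-type range. Among related GTPase genes outside the members, Gbp5, Ifi47, Iigp1, Irgm2 and Tgtp1 had the same lowest and highest libraries. The pattern was not shared by Gbp4, Gbp6, Gbp8 and Gbp9, each lowest in a wild-type library, or by Tgtp2, highest in ADCY3∆AT replicate 3. Gbp2 (ENSMUSG00000028270) measured 20.2, 20.9 and 20.7 CPM in the wild-type replicates against 17.4, 30.5 and 23.8 CPM in ADCY3∆AT. The wild-type libraries lay within 1.03-fold and the ADCY3∆AT libraries spread over 1.75-fold, with means of 20.6 ± 0.362 and 23.9 ± 6.53 CPM (SD, n = 3 each). The Gbp2 log2 fold change was 0.22 ± 0.17 (SE; edgeR adjusted p = 0.686). Igtp, which encodes IRGM3, measured 6.29, 7.25 and 7.61 CPM in the wild-type replicates against 4.98, 13.4 and 6.91 CPM in ADCY3∆AT, so replicate 2 alone carried its fold change above 0. Igtp shares 15.9% of its 31-base words with Irgm2. Gbp3, Gbp7 and Irgm1 ranged from 12.5 to 21.7, from 23.5 to 38.3 and from 8.03 to 13.0 CPM, with ratios of replicate 2 to replicate 1 of 1.73, 1.63 and 1.62. Over the 5 members the median log2 fold change was 0.12 with all libraries, 0.29 when ADCY3∆AT replicate 1 was left out and -0.15 when replicate 2 was.

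**Figure D4:**
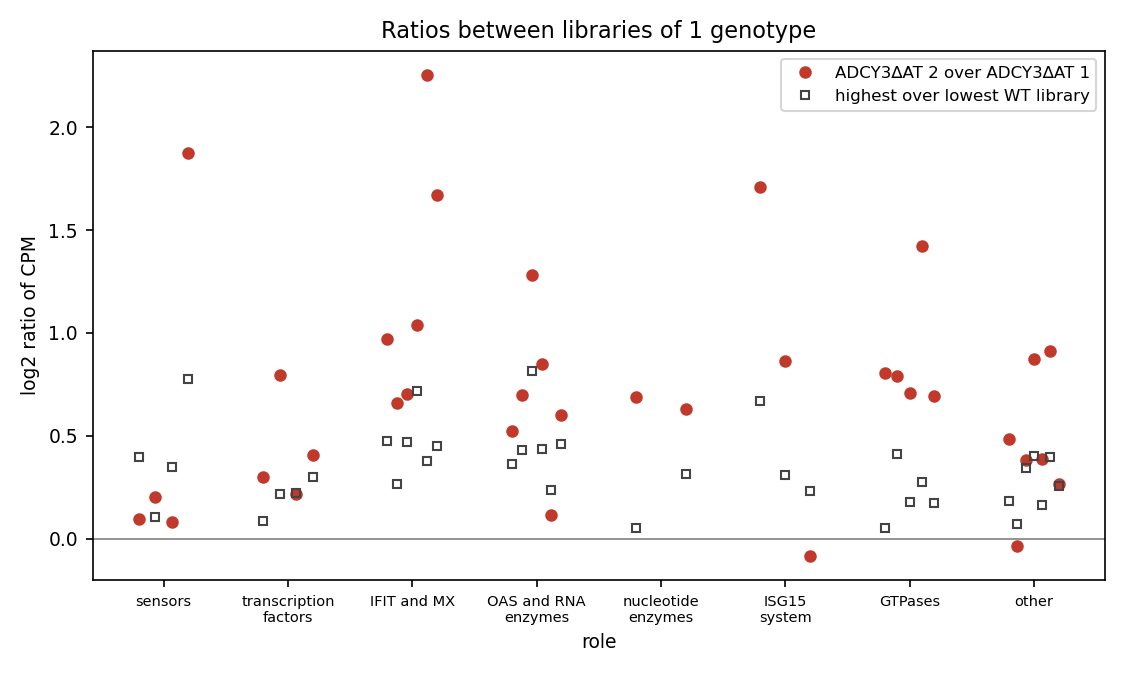
Filled points are the log2 ratio of CPM in ADCY3∆AT replicate 2 to replicate 1 for each gene, and open squares the log2 ratio of its highest to its lowest wild-type library, which cannot be below 0; genes are grouped by role. In the GTPases every filled point lies above every open square, while 3 of the 4 sensors lie near 0.

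The remaining members differed widely in level. Per kilobase of exon, Ifi27 was the most abundant of the 37 at 791 CPM per kilobase, followed by Bst2 at 16.3, Gbp2 at 8.84 and Ifi35 at 6.46, and Oas3 was the least abundant at 0.0862. Ifi27 (ENSMUSG00000064215), a small mitochondrial membrane protein, measured 1197, 1198 and 1138 CPM in the wild-type replicates against 1152, 1123 and 1154 CPM in ADCY3∆AT. Its libraries agreed within 1.07-fold and showed no low value in ADCY3∆AT replicate 1, and its log2 fold change was -0.04 ± 0.05 (SE; 95% interval -0.15 to 0.07; edgeR adjusted p = 0.780). Bst2 (ENSMUSG00000046718), tetherin, which holds budding virus on the cell surface, measured 15.0, 13.6 and 15.4 CPM in the wild-type replicates against 11.2, 15.7 and 17.2 CPM in ADCY3∆AT. ADCY3∆AT libraries held both its lowest and its 2 highest values. Ifi35 measured 9.90, 12.6 and 11.0 CPM in the wild-type replicates against 9.75, 12.7 and 11.0 CPM in ADCY3∆AT, so the genotypes covered almost the same range. Xaf1, which promotes cell death, measured 6.65, 5.94 and 7.10 CPM in the wild-type replicates against 7.10, 8.54 and 6.75 CPM in ADCY3∆AT, a log2 fold change of 0.18 ± 0.12 (SE; edgeR adjusted p = 0.622). Parp14, an ADP-ribosyltransferase, ranged from 44.4 to 58.1 CPM, Ifi44 from 2.74 to 5.02 CPM and Rtp4, a chaperone of receptors, from 2.72 to 5.11 CPM. Each of these 3 had both extremes in ADCY3∆AT, with ratios of replicate 2 to replicate 1 of 1.31, 1.83 and 1.88.

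The rest of the pathway was read from a list of 107 further genes, of which 95 were tested. None was called in edgeR, and 10 had an unadjusted p under 0.05, 8 higher and 2 lower in ADCY3∆AT (5.23% and 5.78% of all genes). DESeq2 called 4, of which Irf8, Slfn5 and Ciita were higher (0.462% of all genes) and Cd274 was lower (0.737% of all genes). Genotypes did not overlap in 16 of the 95, 11 higher (7.73% of all genes) and 5 lower (8.78%). The ligands gave almost no reads: 9 of the 10 listed, Ifnb1 among them, were at 0 in all 6 libraries, which at 3 counts per library allows up to 0.0681 CPM. Ifng had 1 and 2 counts in ADCY3∆AT replicates 1 and 2 and 0 in the other 4 libraries.

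The receptor genes Ifnar1, Ifnar2 and Ifngr1 each varied by at most 1.23-fold between libraries. Ifnar1 measured 46.6, 49.1 and 43.3 CPM in the wild-type replicates against 46.7, 46.1 and 49.7 CPM in ADCY3∆AT, and Ifngr1 ranged from 52.0 to 64.1 CPM with overlapping genotypes. Ifnar2 lay slightly lower in each ADCY3∆AT library (61.5 to 66.8 CPM) than in each wild-type one (67.0 to 69.3 CPM), a log2 fold change of -0.07 ± 0.05 (SE; edgeR adjusted p = 0.693). By contrast, Ifngr2 and Ifnlr1 were higher in each ADCY3∆AT library than in each wild-type one. Their log2 fold changes were 0.14 ± 0.08 and 0.64 ± 0.29 (SE; edgeR adjusted p = 0.590 and 0.474). Ifnlr1 had at most 0.51 CPM. For Il10rb the genotypes overlapped. The kinase Tyk2, which sits on the type I receptor, measured 18.7, 17.1 and 18.5 CPM in the wild-type replicates against 21.1, 22.1 and 20.8 CPM in ADCY3∆AT. All ADCY3∆AT libraries lay above wild type for Tyk2, including replicate 1, with a log2 fold change of 0.23 ± 0.06 (SE; edgeR adjusted p = 0.252; DESeq2 adjusted p = 0.318).

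Of the 95 tested pathway genes, Cd274, which encodes the T cell inhibitor PD-L1, had the lowest p-value. It measured 34.0, 44.0 and 34.8 CPM in the wild-type replicates against 21.5, 22.4 and 26.0 CPM in ADCY3∆AT. The genotypes did not overlap, all ADCY3∆AT values being the lower ones, and replicates 1 and 2, which lay far apart for the members, were alike for Cd274. Its log2 fold change was -0.69 ± 0.11 (SE), with means of 37.6 ± 5.56 and 23.3 ± 2.38 CPM (SD, n = 3 each). The edgeR test left it above the threshold (adjusted p = 0.148), whereas DESeq2 called it (adjusted p = 5.14e-06), as did edgeR with no low-count filter (adjusted p = 0.00321). Mavs, the mitochondrial adaptor of the RNA sensors, measured 96.2, 106 and 85.8 CPM in the wild-type replicates against 76.0, 75.5 and 87.9 CPM in ADCY3∆AT (log2 fold change -0.27 ± 0.09, SE; edgeR adjusted p = 0.344). Its ADCY3∆AT replicate 3 reached into the wild-type range. Oasl1, an OAS-like protein without the enzyme activity, measured 2.58, 2.50 and 3.10 CPM in the wild-type replicates against 1.34, 1.87 and 2.58 CPM in ADCY3∆AT, where replicate 3 reached the wild-type range. It had a log2 fold change of -0.50 ± 0.24 (SE; edgeR adjusted p = 0.513).

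Higher in each ADCY3∆AT library than in each wild-type library were Irf8, a factor of myeloid and B cells, Ciita, the activator of class II antigen presentation genes, and Slfn5. Irf8 measured 3.21, 2.54 and 2.81 CPM in the wild-type replicates against 3.87, 5.98 and 4.93 CPM in ADCY3∆AT, a log2 fold change of 0.79 ± 0.18 (SE; edgeR adjusted p = 0.212; DESeq2 adjusted p = 0.0191). Ciita measured 2.67, 2.52 and 2.01 CPM in the wild-type replicates against 3.72, 6.20 and 3.47 CPM in ADCY3∆AT (log2 fold change 0.89 ± 0.24, SE; edgeR adjusted p = 0.263; DESeq2 adjusted p = 0.0335). Slfn5 measured 166, 165 and 170 CPM in the wild-type replicates against 193, 207 and 188 CPM in ADCY3∆AT (log2 fold change 0.23 ± 0.05, SE; edgeR adjusted p = 0.214; DESeq2 adjusted p = 0.0356). For these 3 genes ADCY3∆AT replicate 2 was the highest library, as it was for 19 of the 37 members. B cell markers summed to 18.7, 10.7 and 15.7 CPM over the wild-type replicates and to 34.0, 41.0 and 16.6 CPM in ADCY3∆AT, and the part of these cells in the values of Irf8 and Ciita was not tested. In bulk tissue, fewer cells of a type and less RNA per cell cannot be told apart.

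Among targets of interferon gamma outside the members, Iigp1 and Cxcl9 were chosen after their values were seen. Iigp1, a GTPase of the same family as Igtp, measured 19.7, 19.4 and 20.2 CPM in the wild-type replicates against 15.4, 42.4 and 22.8 CPM in ADCY3∆AT. The chemokine Cxcl9, which attracts T cells, measured 6.11, 5.74 and 4.18 CPM in the wild-type replicates against 4.23, 12.8 and 6.16 CPM in ADCY3∆AT. In both genes ADCY3∆AT replicate 2 stood alone above the other 5 libraries. This did not hold for each listed gene of these kinds. The chemokine Cxcl10 was highest in wild-type replicate 3, at 1.03 CPM, against 1.00 CPM in ADCY3∆AT replicate 2. The GTPase gene Tgtp2 was highest in ADCY3∆AT replicate 3, at 15.4 CPM, against 13.1 CPM in replicate 2. In the antigen presentation group, 10 of 12 genes were highest in ADCY3∆AT replicate 2 and 7 of 12 lowest in replicate 1. Of the 44 tested genes in the group of further induced genes, 29 were highest in replicate 2 and 22 lowest in replicate 1. The receptors, by contrast, had 2 of 6 highest in replicate 2 and 1 of 6 lowest in replicate 1.

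Markers of cells that could carry these transcripts were set beside the libraries. The 8 macrophage markers, all detected, summed to 190, 116 and 137 CPM over the wild-type replicates and to 133, 202 and 194 CPM in ADCY3∆AT, so replicate 1 lay within the wild-type range and replicate 2 was highest. The 6 T cell markers summed to 1.17, 1.41 and 1.49 CPM over the wild-type replicates and to 1.12, 2.57 and 1.33 CPM in ADCY3∆AT. That sum was lowest in ADCY3∆AT replicate 1, close to wild-type replicate 1, and highest in ADCY3∆AT replicate 2. In ADCY3∆AT replicate 1, Cd3e (0 CPM) and Cd3d (0.131 CPM) lay below wild type, while Cd3g, Cd8a, Cd4 and Trac lay within its range. Cd3e reached only 0.0681 to 0.109 CPM in wild type. The 5 NK cell markers summed to 0.328 to 0.659 CPM over the wild-type replicates and to 0.306, 0.916 and 0.968 CPM in ADCY3∆AT. The 6 plasmacytoid dendritic cell markers, of cells that make much type I interferon, summed to 165 to 171 CPM over the wild-type replicates and to 168, 195 and 185 CPM in ADCY3∆AT, so replicate 2 was highest and replicate 1 lay within the wild-type range. Nearly all of this sum came from Tcf4 (151 to 178 CPM over the 6 libraries), which other cells also express, and from Bst2, itself a member. The defining marker Siglech had 0.372, 0.264 and 0.194 CPM in ADCY3∆AT and 0.036 to 0.372 CPM over the wild-type replicates, Ccr9 had at most 0.0729 CPM, and Klk1 was at 0 in all libraries but 1. The 6 endothelial markers summed to 860 to 929 CPM over the wild-type replicates and to 932, 974 and 993 CPM in ADCY3∆AT. These markers did not move together. Pecam1, Cdh5, Tek and Cldn5 were higher in each ADCY3∆AT library than in each wild-type one. Kdr, the largest part of the sum, had 388 CPM in ADCY3∆AT replicate 1, below wild type (410 to 444 CPM). Emcn, at 40.7 CPM in that library, also lay below wild type (43.2 to 48.6 CPM). The part of each of these cell types, and of the low muscle transcripts in replicate 1, in the spread of the interferon-stimulated genes was not tested.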

How the data were processed

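RNA of 6 libraries, 3 per genotype, was profiled by sequencing. The authors deposited 1 table of estimated counts per gene. Per the submitters' processing notes, Salmon, StringTie, edgeR and the build GRCm38 were used; for their roles and versions nothing is stated (not given in the sources used here). Of the values, 31.6% were not whole, and counts were rounded before testing. The 254 rows without a symbol stayed in the tests under their identifier.

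Genotypes were compared with edgeR 4.0.16 in R 4.3.3 (quasi-likelihood test, TMM factors of 0.965 to 1.02, filterByExpr, Benjamini-Hochberg over the 18114 genes tested, threshold 0.05). Fold changes are ADCY3∆AT over wild type, with an SE derived from each gene's F statistic. CPM values use the TMM factors. DESeq2 1.42.0, limma 3.58.1 (voom), other scalings and filters, a replicate block and leaving out each library were alternatives. All scripts for tests across genes were tested on simulated data. Intervals of counts (95%, exact Poisson) cover counting error only.

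The members and the gene lists were chosen with earlier results of these data known. Per-library values were given for members with the 5 lowest p-values in each direction, the 4 with the largest ratio between libraries among those of at least 1 CPM, the 4 most abundant per length, and Isg15, Ifit1, Irf7, Stat2, Usp18 and Gbp2. For the pathway list they were given for the 3 lowest p-values in each direction and for signalling genes, of which 1 is not reported here. Rsad2, Igtp, Cmpk2, Trim25, Ciita, Cxcl10, Ifngr2, Ifnlr1, Il10rb, the GTPase genes outside the members, and the markers Dio2 and Elovl3 were described after their values were seen. Members were compared by shared 31-base words of their transcripts to find near copies.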

Additional observations from a re-analysis of the deposited data

How the results depend on the processing

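The number of interferon-stimulated genes past the threshold was 0 in edgeR under every alternative run and in DESeq2 and limma voom. Over all genes the count of 1 became 231 in DESeq2, 214 with no low-count filter, 2 in limma voom, 2 with robust edgeR and 3 with the replicate block, and 1 to 66 with a library left out, the most without ADCY3∆AT replicate 3. The further pathway genes called went from 0 to 4 in DESeq2 and 1 with no low-count filter, and stayed at 0 with any library left out. Members with an unadjusted p under 0.05, an alternative added after seeing the data, numbered 1 in DESeq2, 1 with no low-count filter, 1 with the replicate block and 0 to 3 with a library left out. The shares of all genes were 5.63%, 8.39% and 8.12% in the first of these, and 9.39% and 7.22% without ADCY3∆AT replicate 1 or 2, which gave the 3. Members above 0 numbered 13 to 16 under other tools, scalings and filters and 6 to 23 with a library left out, and their median log2 fold change then ran from -0.24 to 0.087. Members whose genotypes did not overlap numbered 0 to 7 with a library left out, also added after seeing the data. Without the 3 members that have near copies (Ifit3, Ifit3b, Oas1a), 26 of 34 were lowest in ADCY3∆AT replicate 1 and 19 highest in replicate 2.

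Several log2 fold changes turned sign, among them values away from 0: without ADCY3∆AT replicate 1, Isg15 went from -0.26 to 0.11 and Rsad2 from -0.17 to 0.01, and without ADCY3∆AT replicate 2 Igtp went from 0.26 to -0.24. Zbp1 was -0.039 in limma voom, Bst2 -0.016, and Mx2 0.023 with library totals alone, 0.00069 with no filter and 0.0017 with the 1 CPM filter. With a library left out, the values ran from -0.49 to 0.36 for Mx1, -0.55 to 0.44 for Zbp1, -0.32 to 0.35 for Mx2, -0.12 to 0.17 for Bst2, -0.10 to 0.10 for Ifi35, -0.51 to 0.11 for Isg15, -0.084 to 0.12 for Stat2, -0.0097 to 0.08 for Ifnar1 and -0.094 to 0.055 for Ifngr1. The cause was not tested, beyond the fewer samples.

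Replicate numbers gave no sign of pairing the libraries: deviations of same-numbered libraries correlated at -0.0857, -0.128 and -0.0864 across genes. Differently numbered libraries correlated at 0.0037 to 0.0926. Deviations from means of 3 libraries cannot settle whether a pairing existed. With the replicate block, 13 members were above 0, the median was -0.06, Zbp1 was -0.052 and Bst2 -0.015. With 3 libraries a genotype, the depth of Isg15, Mx1 and Oas3, at about 1 CPM or less, limits what could be detected.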
